A study of Mus musculus with 2 samples.

Results

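The Met receptor and the genes that control its ligand were compared between a pair of sorted mouse bone marrow populations. The set has 8 genes: the receptors Met and Mst1r, the ligand Hgf, the activating proteases Hgfac and St14, the protease inhibitors Spint1 and Spint2, and the docking adaptor Gab1. These genes were chosen by name around Met, which had been selected on its difference between these same 2 arrays, so the differences below are descriptions. All 8 were measured, each by 1 probe set that names no other gene, out of 19935 genes in all.

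The cells came from the bone marrow of ddY mice, an outbred strain, aged 6 weeks, and were the mononuclear fraction of a density gradient. They were sorted with antibodies to RANK, the receptor through which RANKL drives osteoclast formation, and to c-Fms, which binds M-CSF, into RANKhighFmslow and RANKlowFmshigh cells. Each population was measured on 1 array, with no genotype or drug treatment named, and the labels do not say how many mice either array represents. No value therefore has a replicate error, and no test was made. Differences are log2 intensities of RANKhighFmslow cells minus RANKlowFmshigh cells.

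Hepatocyte growth factor, the product of Hgf, is secreted as an inactive single chain, and serine proteases cut it into the active form. HGF activator (Hgfac) and the membrane protease matriptase (St14) make this cut, and the Kunitz-type inhibitors HAI-1 (Spint1) and HAI-2 (Spint2) block such proteases. Active HGF binds the receptor tyrosine kinase Met, which recruits Gab1 as its main docking protein. Mst1r, also called Ron or Stk, is the sister receptor, binds macrophage-stimulating protein (Mst1) and is known from tissue macrophages.

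The start sites of both receptor genes are shown because Met carries the main difference and Mst1r is its closest relative. RefSeq windows on GRCm38.p6 were at hand for 7 of the 8 genes, with 10 start sites in all, and were searched on both strands for 5 short motifs, chosen after the sequences had been read. These were TGAGTCA (AP-1), CACGTG (the E-box of basic helix-loop-helix factors), GGGCGG (the GC box), GATAAG (bound by the GATA family) and the letters GAGGAA (the core of PU.1 and related ETS factors). Only the 250 bases before each start site were used, and capitals mark the motifs in the sequences that follow.
Met, chr6:17463707-17463956, plus strand: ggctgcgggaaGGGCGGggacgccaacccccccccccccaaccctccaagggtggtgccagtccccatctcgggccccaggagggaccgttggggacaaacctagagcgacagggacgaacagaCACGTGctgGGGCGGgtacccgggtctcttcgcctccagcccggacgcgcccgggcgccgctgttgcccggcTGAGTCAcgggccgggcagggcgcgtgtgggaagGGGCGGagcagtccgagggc
Mst1r, first start site, chr9:107906639-107906888, plus strand: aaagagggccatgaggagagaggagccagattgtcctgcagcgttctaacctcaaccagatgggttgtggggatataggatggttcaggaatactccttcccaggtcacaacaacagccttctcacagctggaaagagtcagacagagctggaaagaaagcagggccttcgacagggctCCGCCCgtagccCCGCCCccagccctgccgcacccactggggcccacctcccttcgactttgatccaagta
Mst1r, internal start site, chr9:107914753-107915002, plus strand: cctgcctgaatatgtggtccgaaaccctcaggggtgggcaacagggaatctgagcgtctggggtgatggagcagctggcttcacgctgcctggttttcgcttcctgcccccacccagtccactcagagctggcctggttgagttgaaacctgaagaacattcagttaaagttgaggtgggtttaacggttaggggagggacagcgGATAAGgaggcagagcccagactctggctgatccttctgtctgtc

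The Met window had a G+C content of 74.0%, close to the 95th percentile of 73.6% over all 32851 windows, and held 24 CpG dinucleotides against a median of 6. It held 3 GC boxes, 1 E-box 126 bases before the start site and 1 AP-1 motif 54 bases before it, with no overlap between them. Of all windows, 32.7% held a GC box, 6.02% this E-box and 4.46% this AP-1 motif. The first Mst1r window held 2 GC boxes. The internal Mst1r window, which lies within the gene, held 1 GATA motif 45 bases before its start site, as 6.55% of all windows do. An internal promoter of mouse Mst1r is known to give the short form of Stk in erythroid cells. GAGGAA was found in 23.3% of all windows and in none of these 3. These are matches of letters and say nothing about binding.

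The intensity guide used below is the 95th percentile of 1189 olfactory and vomeronasal receptor genes, a class with no known use in marrow. It stood at 83.8 on the RANKhighFmslow array and 81.8 on the RANKlowFmshigh array. A value under it cannot be told from background. Of the 8 genes, 4 were above the guide on both arrays (Hgf, Spint1, Spint2 and Gab1), 2 on 1 array (Met and St14) and 2 on neither (Mst1r and Hgfac). With the 99th percentile as a stricter guide (140.0 in RANKhighFmslow and 119.7 in RANKlowFmshigh cells), Hgf, Spint2 and Gab1 stayed above it on both arrays and Spint1 and St14 lay under it on both. For orientation, the c-Fms gene Csf1r stood at 164 in RANKhighFmslow cells and 821 in RANKlowFmshigh cells. The RANK gene Tnfrsf11a stood at 104 in RANKhighFmslow cells and 119 in RANKlowFmshigh cells, above the guide but under the stricter one on both arrays. Its measured value was not higher in the population labelled RANKhigh, but so near background no difference is read from it. Across all 28815 probe sets the arrays correlated with Pearson's r = 0.971, where probe sets are not independent replicates.

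Met transcript was far lower in RANKhighFmslow cells. Its intensity was 56.4 in RANKhighFmslow cells and 512 in RANKlowFmshigh cells, a measured log2 difference of -3.18. The RANKhighFmslow value lay under the guide, in the range of the chemoreceptor genes. The gene was therefore at least 6.12-fold lower there, or at least 3.66-fold with the stricter guide. A level filter kept 11089 genes with at least 1 value of 93.6 or more, the pooled median of both arrays. By measured values Met had the lowest difference among them, but at its bound the place is not settled. With values under the guide raised to it, a setting chosen after seeing the data, 11 genes were lower still, among them F13a1 (8.08-fold) and Abca9 (7.49-fold). Met passed this level filter only through the RANKlowFmshigh array. In a sorted population, fewer Met-expressing cells and less Met RNA in each cell cannot be told apart.

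For the sister receptor no difference could be measured. Mst1r stood at 73.9 in RANKhighFmslow cells and 69.3 in RANKlowFmshigh cells, under the guide on both arrays, so that no fold is given. Its measured log2 difference was 0.09.

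Hgf transcript was above the guide in both populations and nearly equal. Its intensity was 146 in RANKhighFmslow cells and 164 in RANKlowFmshigh cells, a difference of -0.16. The gap is smaller than the median gap of 0.19 between the differences of 2 probe sets of the same gene, taken over 558 genes. With quantile normalization the Hgf difference was -0.20, just past that median gap in size. That median gap measures disagreement between probe sets over the same 2 arrays, not replicate error. Stromal cells are a known source of HGF in marrow. Of 9 measured stromal and osteoblast markers, 5 were under the guide on both arrays and 0 differed by 2-fold. Their summed intensity was 691 in RANKhighFmslow cells and 729 in RANKlowFmshigh cells. Which cells carried the Hgf transcript was not tested.

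The activating proteases were at or near background. Hgfac, made mainly by the liver, stood at 73.0 in RANKhighFmslow cells and 72.2 in RANKlowFmshigh cells, under the guide on both. St14 stood at 84.9 in RANKhighFmslow cells, just above the guide, and at 78.2 in RANKlowFmshigh cells, just under it. Its difference of 0.12 was again within the gap between probe sets of a gene.

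The inhibitors were above the guide on both arrays and went in opposite directions by small amounts. Spint1 stood at 92.9 in RANKhighFmslow cells and 98.8 in RANKlowFmshigh cells (difference -0.09). Spint2 stood at 157 in RANKhighFmslow cells and 128 in RANKlowFmshigh cells, 1.23-fold higher in the first population. Its difference of 0.30 was the largest of the 7 genes other than Met and exceeded the median gap of 0.19, but not the 90th percentile of 0.67.

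Gab1, which links Met to SHP2 and phosphatidylinositol 3-kinase, was above the guide on both arrays. It stood at 195 in RANKhighFmslow cells and 163 in RANKlowFmshigh cells, 1.19-fold higher (difference 0.26). The plot of the 8 genes by array shows Met as the 1 gene with a wide gap.

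**Figure D1:**
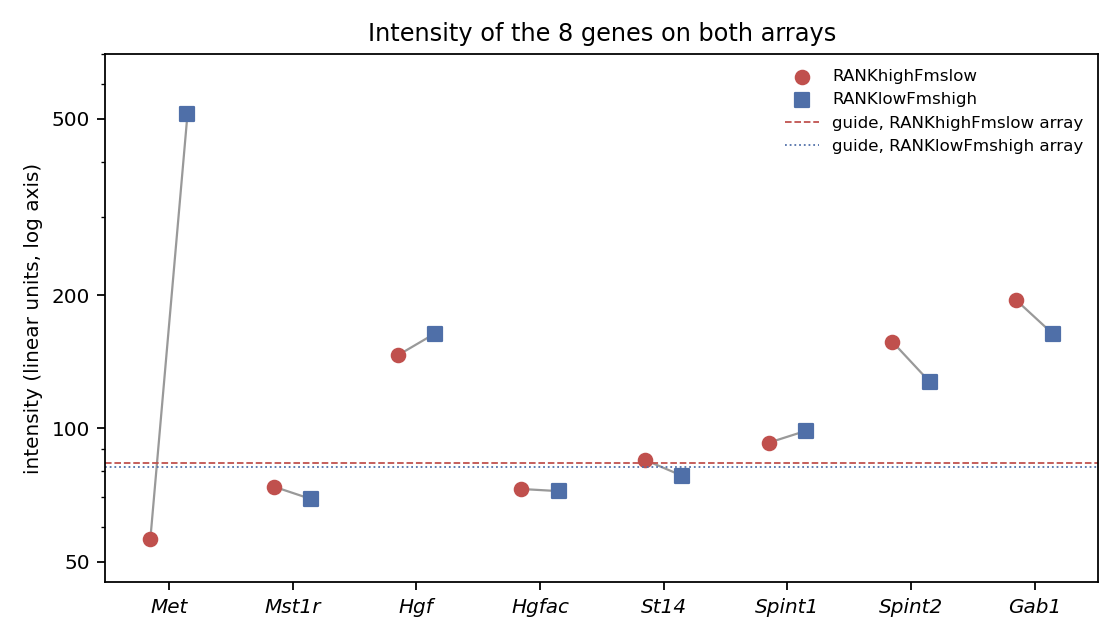
Intensity (log axis, linear units) of the 8 genes in RANKhighFmslow (red circles) and RANKlowFmshigh cells (blue squares), 1 array each, with the background guide of each array as a line. Met stands at 56.4 in RANKhighFmslow cells, under the guide, and at 512 in RANKlowFmshigh cells, while the points of each other gene lie close together.

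Of the 8 genes, 5 passed the level filter: Met, Hgf, Spint1, Spint2 and Gab1. Among these, 0 were higher in RANKhighFmslow cells by 2-fold or more, as 4.34% of all genes past the filter were. In the other direction 1 gene, Met, was lower by 2-fold or more, as 4.26% of all genes were. At 1.5-fold the counts were again 0 and 1, against 10.5% of all genes higher and 12.4% lower. Since Met led to the choice of the set, nothing is read from its count. The other 7 genes ranged from -0.16 to 0.30, with a median of 0.09 beside 0.01 over all genes. A difference no larger than theirs was found for 53.0% of all genes past the filter. The 2-fold shares of all genes, 4.34% higher and 4.26% lower, also stand beside the counts of each list below.

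**Figure D2:**
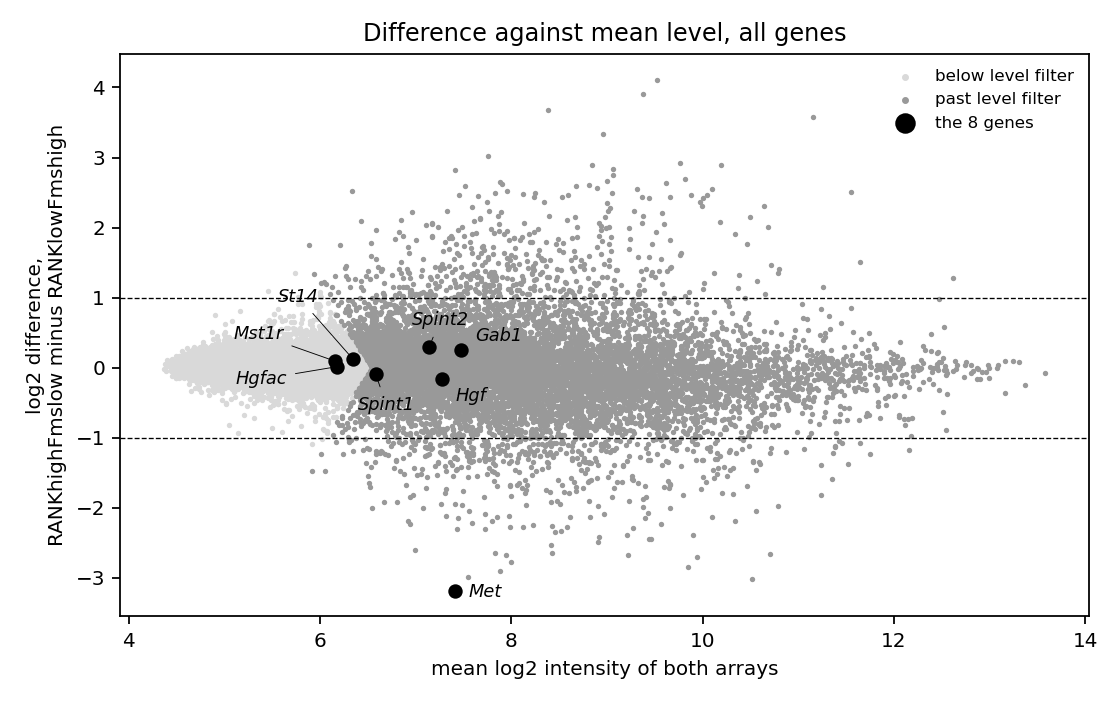
Log2 difference (RANKhighFmslow minus RANKlowFmshigh) against the mean log2 intensity of both arrays for all 19935 genes, with the 8 genes in black and 2-fold as dashed lines. By measured values Met lies at -3.18, of which its background value in RANKhighFmslow cells allows only the bound of at least 6.12-fold, and the other 7 lie in the bulk of genes near 0.

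Met was also compared with its own class of receptors. Of 58 receptor tyrosine kinase genes listed, 56 were measured and 17 passed the level filter; 33 were under the guide on both arrays. At the low end of the differences stood Met and Csf1r, whose protein the cells were sorted on. Their order is not settled: Csf1r was 5.02-fold lower, a smaller fold than the Met bound of 6.12 and a larger one than its bound of 3.66 with the stricter guide. Flt3, the receptor of early progenitors and dendritic cell precursors, came next with 190 in RANKhighFmslow cells and 356 in RANKlowFmshigh cells (-0.90). Only Met and Csf1r were at least 2-fold lower in this class. At the high end stood Ryk, a Wnt receptor, at 192 in RANKhighFmslow cells and 79.0 in RANKlowFmshigh cells, at least 2.35-fold higher. Ryk was followed by Epha2, at least 1.45-fold higher since its RANKlowFmshigh value was under the guide, and Lmtk2 (0.51). The median of the class was 0.03. Over all genes past the filter, 4.26% were at least 2-fold lower and 4.34% higher.

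**Figure D3:**
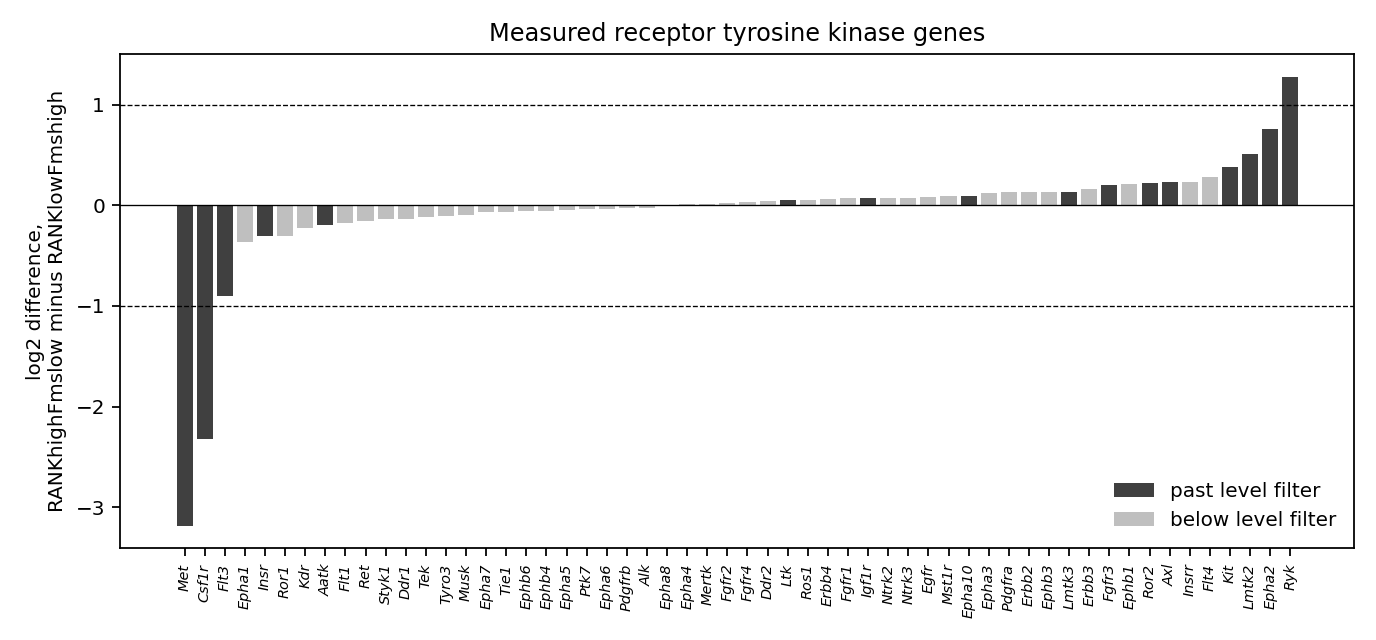
Log2 difference (RANKhighFmslow minus RANKlowFmshigh) of the 56 measured receptor tyrosine kinase genes, sorted, with genes past the level filter in dark grey. Met (-3.18) and Csf1r (-2.33) reach below the lower 2-fold line and Ryk (1.28) above the upper one.

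By the distance between the pairs of log2 values, over 2 arrays only, the gene nearest to Met was Itga1, the alpha 1 subunit of a collagen-binding integrin. This distance also sets the levels of different probe sets against each other, and by the difference alone F13a1 was nearer (gap 0.17) than Itga1 (0.20). Itga1 stood at 66.4 in RANKhighFmslow cells and 525 in RANKlowFmshigh cells, at a distance of 0.24, with the RANKhighFmslow values of Met and Itga1 under the guide. Emp1, an epithelial membrane protein gene, followed at 0.63 and the lipid transporter gene Abca9 at 0.70. Stxbp6, a syntaxin-binding protein gene, and Il13ra1, a chain of the interleukin-13 receptor, lay at 0.71 and 0.72. All 5 were lower in RANKhighFmslow cells, as the measure requires. Emp1 and Il13ra1 were also under the guide there.

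The genes next to Met on chromosome 6 were then examined, 4 protein-coding genes on either side in the RefSeq order; this set was added after the other results were known. Capza2, an actin-capping subunit gene and the next gene on one side, stood at 1230.2 in RANKhighFmslow cells and 2843 in RANKlowFmshigh cells, 2.31-fold lower. On the other side Cav1, encoding caveolin, was under the guide on both arrays, at 49.4 in RANKhighFmslow cells and 50.1 in RANKlowFmshigh cells. Cav2 stood at 49.3 in RANKhighFmslow cells, under the guide, and 91.8 in RANKlowFmshigh cells. Tfec, the fourth gene on that side and a MiT-family transcription factor of macrophages, stood at 403 in RANKhighFmslow cells and 1618 in RANKlowFmshigh cells, 4.02-fold lower. Tes and St7 were within 2-fold: Tes stood at 403 in RANKhighFmslow cells and 455 in RANKlowFmshigh cells, and St7, past Capza2, at 350.1 in RANKhighFmslow cells and 260.5 in RANKlowFmshigh cells. Wnt2 and Asz1 were under the guide on both arrays. Tfec and Capza2 were thus at least 2-fold lower, as 4.26% of all genes past the level filter were. Unlike Met, both were above the guide in RANKhighFmslow cells. Tes and St7 did not reach 2-fold, and Cav2 was at least 1.10-fold lower. For Cav1, Wnt2 and Asz1 no difference could be measured.

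**Figure D4:**
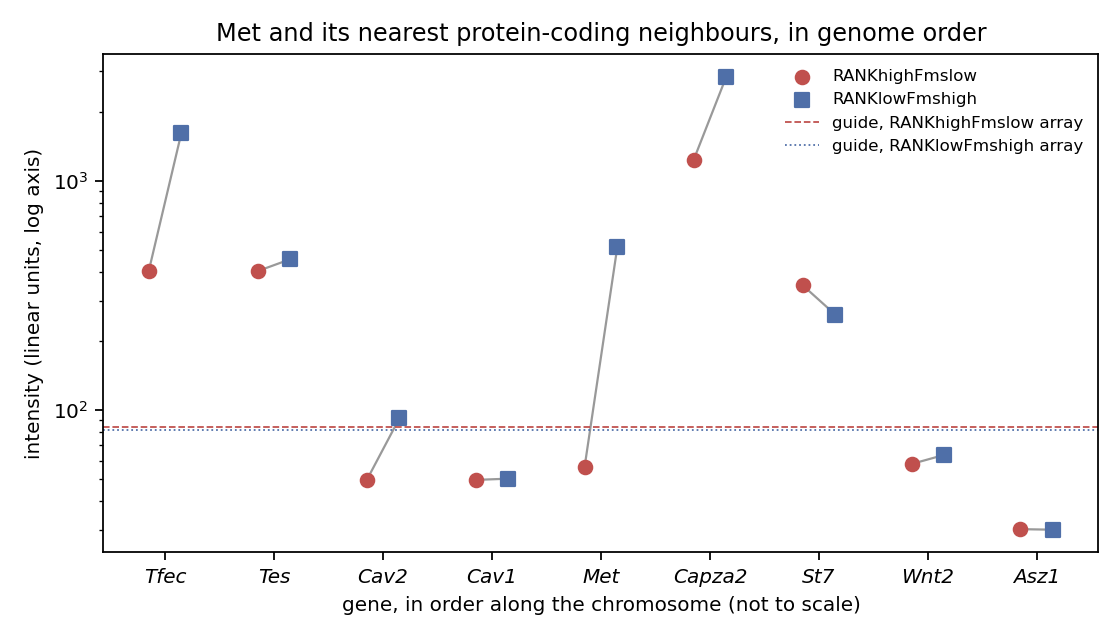
Intensity (log axis, linear units) of Met and 4 protein-coding genes on either side, in genome order, in RANKhighFmslow (red circles) and RANKlowFmshigh cells (blue squares). Tfec, Met and Capza2 are lower in RANKhighFmslow cells by at least 2-fold, and Tes and St7 are not.

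The wider HGF and MSP activation system was mostly at background. Of 18 ligand, protease and serpin genes listed, 16 were measured, 10 were under the guide on both arrays and 5 passed the level filter, with 0 at 2-fold in either direction. Plau, the urokinase gene and another HGF-cleaving protease, stood at 56.4 in RANKhighFmslow cells, under the guide, and 99.4 in RANKlowFmshigh cells. Mst1, the ligand of Mst1r, stood at 143 in RANKhighFmslow cells and 104 in RANKlowFmshigh cells (difference 0.46). The membrane proteases Hpn (0.20) and Tmprss6 (0.07) and the kallikrein gene Klk4 (0.06) differed little. The list median was 0.01.

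Of 14 further genes with Kunitz domains, 9 were under the guide on both arrays and 5 passed the filter, 1 of them at least 2-fold lower and 0 higher. This was App, the amyloid precursor gene, some of whose isoforms carry the domain, at 335 in RANKhighFmslow cells and 1330 in RANKlowFmshigh cells (3.97-fold lower). Its relative Aplp2 (-0.30), the tissue factor pathway inhibitor gene Tfpi (-0.17), Wfikkn1 (0.14) and Papln (0.11) were within 2-fold. The list median was -0.04. The shares of all genes past the filter were 4.26% lower and 4.34% higher by 2-fold or more.

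Partners of Met at the cell surface included genes with differences above 2-fold in the direction of Met. Of 18 co-receptor, partner and shedding genes, all measured, 15 passed the level filter. RANKhighFmslow cells were at least 2-fold lower in 3 of them and higher by as much in 0. With a pseudocount of 32 the first count was 2, without Plxnb2. Of all genes past the filter, 4.26% were at least 2-fold lower and 4.34% higher. Nrp1, neuropilin 1, which can bind HGF, stood at 89.4 in RANKhighFmslow cells and 416 in RANKlowFmshigh cells, 4.65-fold lower. Cd44, whose variant isoforms present HGF to Met, stood at 335 in RANKhighFmslow cells and 872 in RANKlowFmshigh cells (2.61-fold lower). The semaphorin receptor gene Plxnb2, of the plexin family that associates with Met, was 2.21-fold lower at 96.9 in RANKhighFmslow cells and 214 in RANKlowFmshigh cells. The sheddase gene Adam17 (-0.80) was lower by less than 2-fold. The heparan sulfate proteoglycan gene Sdc4 was 1.81-fold higher at 369 in RANKhighFmslow cells and 204 in RANKlowFmshigh cells. Differences were positive for 9 of the 15 and negative for 6, and the median of the 18 was 0.12, on the other side of 0 from these 3.

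Adaptors and downstream kinases made up the list with the most genes past the filter. Of 34 listed, 28 were measured and all 28 passed the filter, of which 1 was higher and 1 lower by 2-fold or more (list median -0.11). The lower one was Gab2, the paralog of Gab1, at 192 in RANKhighFmslow cells and 390 in RANKlowFmshigh cells (2.04-fold), whereas Gab1 was 1.19-fold higher in the same comparison. The higher one was Ranbp10, a paralog of the Met-binding protein Ranbp9, at 565 in RANKhighFmslow cells and 150.0 in RANKlowFmshigh cells (3.77-fold). Among all genes past the filter, 4.34% were higher and 4.26% lower by 2-fold or more. Map2k2, which encodes the kinase MEK2, was 1.72-fold higher, and Stat3 (1.68-fold) and Nras (1.57-fold) were lower. Among 21 attenuators of Met signalling, 13 passed the filter and 0 reached 2-fold, with a median of -0.01. The ubiquitin ligase gene Cbl, which sends active Met to degradation, came closest at 436 in RANKhighFmslow cells and 869 in RANKlowFmshigh cells (1.99-fold lower). The phosphatase gene Ptpn1 was 1.70-fold lower, Dusp6, a phosphatase of ERK, 1.53-fold higher, and Cd2ap lower by less (-0.48). The feedback inhibitor gene Spry2 was at least 1.61-fold higher.

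Markers of other cells are given beside Met, and their lists differed in direction. Of 9 measured monocyte markers, all were lower in RANKhighFmslow cells, 6 by 2-fold or more (median -1.57). Their summed intensity was 4317 in RANKhighFmslow cells and 17593 in RANKlowFmshigh cells, and the range was 131 to 889 and 289 to 4187 on these arrays. The blood coagulation gene F13a1 (-3.01) and Fn1 (-2.66) had the largest differences of the list. In RANKhighFmslow cells they stood at 517 and 661, and in RANKlowFmshigh cells at 4177 and 4187. Of 10 macrophage markers, 3 were lower and 2 higher by 2-fold or more, with sums of 2932 in RANKhighFmslow cells and 4899.8 in RANKlowFmshigh cells. The part of these cells in the Met difference was not tested. Met is best known from epithelia, so epithelial markers were set beside it. Of 8, 0 differed by 2-fold, with sums of 590.3 in RANKhighFmslow cells and 593 in RANKlowFmshigh cells. Epcam, Krt18, Krt19, Krt5 and Cldn7 were under the guide on both arrays. Of 8 measured erythroid markers, the lineage of the short Mst1r form, all were at least 2-fold higher in RANKhighFmslow cells, with sums of 11639 in RANKhighFmslow cells and 3044 in RANKlowFmshigh cells, while Mst1r lay under the guide on both.

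**Figure D5:**
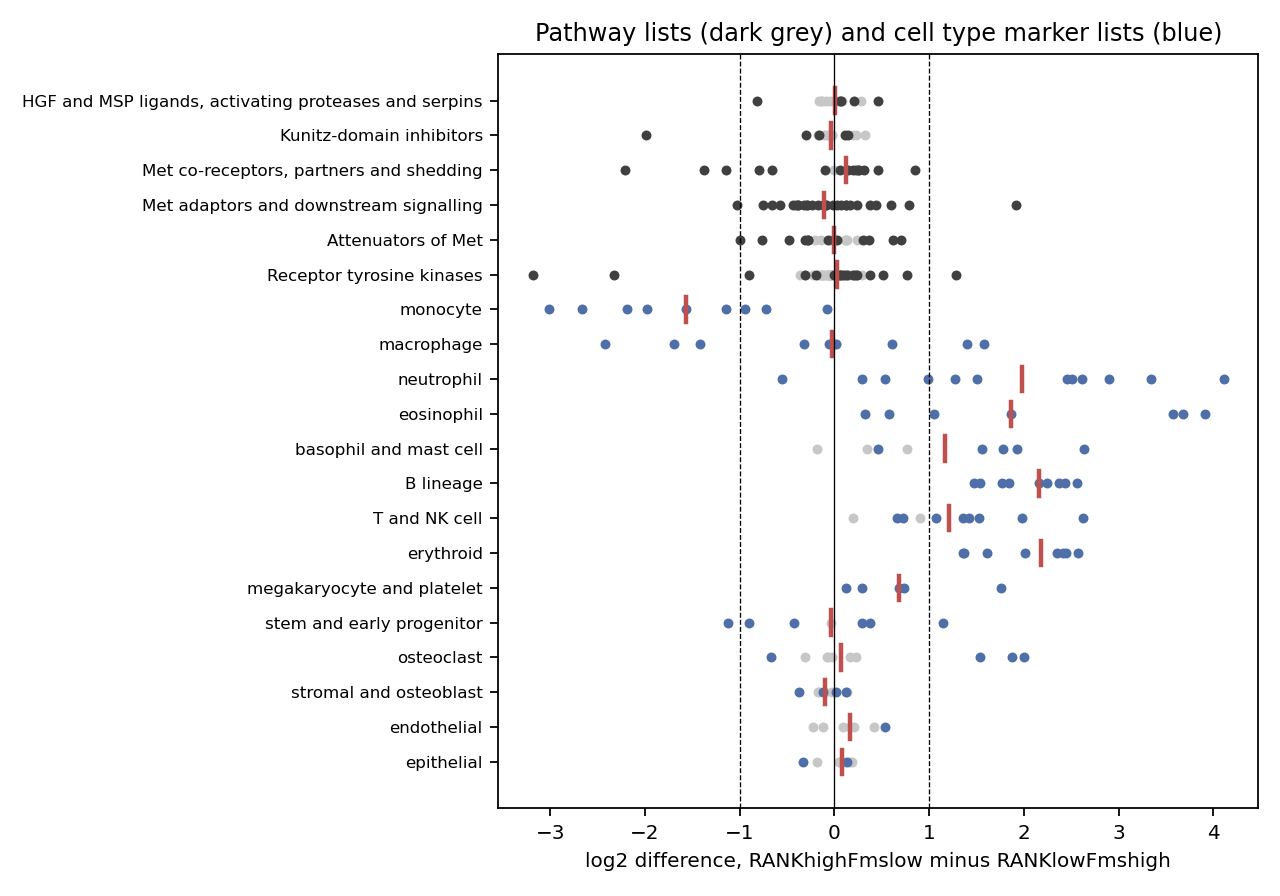
Log2 difference (RANKhighFmslow minus RANKlowFmshigh) of every measured gene of 6 pathway lists and 14 cell type marker lists; pale points did not pass the level filter, red bars are medians and dashed lines are 2-fold. The pathway lists centre near 0 with a few distant genes, the monocyte markers lie below 0, and the neutrophil, eosinophil, B lineage and erythroid markers lie mostly above 1.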

How the data were processed

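Transcripts were measured on 1-colour arrays hybridised with amplified, biotin-labelled cDNA, 1 array per sorted population and 2 in all. The deposited table gives each probe set a linear intensity. GCOS 1.4 and RMA were used, per the submitters' processing notes, in roles not given in the sources used here, and the normalization between arrays is that of the authors. Intensities had medians of 94.5 (RANKhighFmslow) and 92.6 (RANKlowFmshigh). They were put on the log2 scale with no pseudocount or further scaling, in Python 3.11.15 with pandas 2.3.3 and numpy 2.4.6. The platform annotation (2016) gave 1 gene for 21780 of 28815 probe sets; the 1605 with several genes and the 5430 unlisted ones were left out, and probe sets of a gene were averaged.

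With 1 array per group nothing was tested, and the number of arrays limits the precision. By their measured values, genes were counted at 2-fold or more among those whose higher value reached 93.6. A fold whose lower value lay under the background guide is the higher value over the guide, written "at least". The size rule was also run on simulated differences planted well above the level filter. This checks the script and says nothing about values under the guide. Named are the 8 genes, the sort markers, up to 5 genes of each of 6 pathway lists and up to 3 of each of 14 marker lists with the largest absolute difference past the level filter, the 3 receptor tyrosine kinases at each end, and the 5 genes nearest to Met. Outside this rule are the neighbours of Met on its chromosome, Gab3, Il5ra, Itgb3 and markers named for lying under the guide. All of these were chosen after their values were seen. The members, lists and settings were chosen with earlier results of these data known. Alternatives were quantile normalization, median centring, a pseudocount of 32, the highest probe set of each gene, other level filters (none or 200), 1.5-fold, the 99th percentile as guide and, added after seeing the data, values under the guide raised to it. Sequences are RefSeq's, from GRCm38.p6; the array's own build is not given in the sources used here, so no probe coordinates are printed.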

Additional observations from a re-analysis of the deposited data

How the results depend on the processing

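Of 166 recomputed values over 34 results, 153 were labelled the same and 13 moved. A count or share kept the label up to a 1.5-fold change, and a difference up to the median probe set gap of 0.19. Many labels were fixed by construction, so the tally does not measure robustness. Median centring moved every difference by the same amount, smaller than this gap. The highest probe set changes no gene that has 1 probe set. A reversal was counted only for a difference of 2-fold or more. Met was the only such difference among the results, so the 0 reversals rest on Met alone. Smaller differences could change sign uncounted, as that of Hgfac did. The medians of the HGF and MSP list and of the receptor tyrosine kinases also turned negative with median centring. The measured Met difference ran from -3.21 to -2.62 over the scaling and pseudocount alternatives, the smallest being -2.62 with a pseudocount of 32. With the 99th percentile of the chemoreceptor genes as guide (140.0 on the RANKhighFmslow array), Met was at least 3.66-fold lower in place of 6.12-fold. Met's rank rests on a value under the guide. It was first among the kinases and all genes past the filter by measured values. With values under the guide raised to it, chosen after seeing the data, it was 1 among the kinases and 12 among all genes, and with the 99th percentile guide 2 and 48. The members' counts of 0 higher and 1 lower were the same under the scaling and pseudocount alternatives, the level filter of 200 and 1.5-fold. The highest probe set could not change them, since each member has 1 probe set. Neither 1.5-fold, leaving out the level filter nor setting it at 200 could take Met, at 512 in RANKlowFmshigh cells, from the lower count. The share of all genes at least 2-fold apart was 2.44% higher and 2.38% lower without a level filter. With the level filter of 200 it was 6.19% and 6.34%, changes that were labelled the same. At 1.5-fold the shares were 10.5% and 12.4%. By the gap of the differences alone, 2 of the 5 genes nearest to Met were shared, Itga1 and Abca9. Gab2 and Plxnb2 fell short of 2-fold with the pseudocount, Cbl passed it with median centring, and Ryk did not pass the level filter of 200. Hgfac had a difference from -0.01 to 0.02, so its sign is not settled. The differences of the other members ran from -0.20 to -0.14 for Hgf, -0.12 to -0.07 for Spint1 and 0.22 to 0.26 for Gab1. No replicate could be left out with 1 array per group. No paired analysis was possible because each group has 1 sample. The cause of these shifts was not tested beyond each setting's own construction.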

Other observations

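Markers of the other marrow cell types were mostly higher in RANKhighFmslow cells. At least 2-fold higher were 8 of 12 neutrophil markers (median 1.98), led by Retnlg, a resistin-like protein of granulocytes, 5 of 7 eosinophil markers (1.87), led by Prg3, and 4 of 8 basophil and mast cell markers (1.16), led by the protease gene Mcpt8. The same was so for all 9 measured B lineage markers (2.16), led by the commitment factor gene Pax5, and for 6 of 10 T and NK cell markers (1.21), led by Cd3d. These counts use measured values. Il5ra, among the 5 eosinophil genes counted, was under the guide in RANKlowFmshigh cells and by its bound only at least 1.21-fold higher. None of these 5 lists had a member at least 2-fold lower. Of 5 megakaryocyte and platelet markers 1 passed, Pf4 (median 0.69). Among the 7 genes of stem cells and early progenitors, Slamf1 passed 2-fold upwards and Cd34 downwards (median -0.04). Of 10 osteoclast markers (median 0.07), 4 passed the level filter. Car2, Mmp9 and Acp5 were at least 2-fold higher, and Itgb3 was 1.59-fold lower at 131 in RANKhighFmslow cells and 209 in RANKlowFmshigh cells. Another 5 lay under the guide on both arrays, Ctsk and Calcr among them. Of 7 endothelial markers 0 differed by 2-fold and 6 were under the guide (median 0.17). The stromal and epithelial medians were -0.10 and 0.08.

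Docking adaptors of the Gab family differed in direction. Gab1 and Gab3 had differences of 0.26 and 0.43 and Gab2 one of -1.03. Gab3, chosen after its value was seen, stood at 174 in RANKhighFmslow cells and 129 in RANKlowFmshigh cells.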
